A study of Mus musculus with 42 samples.

Results

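Mouse induced pluripotent stem cells (iPSC) of the naivex2 lines were set against the mouse embryonic fibroblasts (MEF) from which their reprogramming started, across every gene of one count table. The comparison takes 3 iPSC libraries and 3 MEF libraries out of the 42 libraries of the series, all sequenced in the first batch. The other libraries hold late reprogramming intermediates and iPSC clones that are wild type or lack TET1. Both groups came from male cells of a cross of B6; 129S4-Tg(Tet1-mCherry)B37Koh mice with B6;CBA-Tg(Pou5f1-EGFP)2Mnn/J mice. Every library in the comparison therefore carries 1 copy of each reporter, written in the labels as Tg(mCherry)/wt; Tg(GFP)/wt. The MEF were taken at day 0, and the age of the embryos is not given in the sources used here. The iPSC were grown on feeder cells in KSR medium for 6 to 7 passages and freed of feeders before RNA was taken. Each iPSC library is 1 clone of 1 of 3 independent lines, so it stands for that clone and not for all iPSC of its line. How the reprogramming factors were brought into the cells is not given in the sources used here, and counts per gene do not separate a gene's own transcript from a delivered copy or from a reporter.

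Reprogramming turns a differentiated cell into one that renews itself and can form all embryonic tissues. Fibroblasts secrete collagen-rich matrix, pull on it with actin stress fibres and keep a record of their body position in the Hox genes. Pluripotent cells instead form tight epithelial colonies, hold their identity with a network around OCT4, SOX2 and NANOG, and in the naive state also use factors such as ESRRB, KLF4 and TFCP2L1. TET1, an enzyme that oxidises methylated cytosine, is among the genes that are turned on in this process.

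The MEF libraries held 20549424, 14361592 and 20783265 counts and the iPSC libraries 13803350, 17530338 and 16046544, given here and below in the order of labelled lines 1, 2 and 3. Levels are in CPM, counts normalised to the scaled library size. Libraries of 1 group correlated at 0.994 to 0.995 in MEF and 0.98 to 0.983 in iPSC over log2 CPM of all tested genes, whereas a MEF and an iPSC library correlated at 0.768 to 0.803. The summed level of 12 pluripotency markers was 4.58, 4.55 and 2.36 CPM in MEF and 5440, 5670 and 5400 CPM in iPSC. The summed level of 12 fibroblast markers was 18200, 18000 and 16800 CPM in MEF and 1740, 2980 and 987 CPM in iPSC. Both marker sums place all 6 libraries in the cell type of their label, and the iPSC libraries kept a measurable fibroblast signal that was highest in line 2 and lowest in line 3. In bulk RNA, fewer cells of a type and less RNA per cell cannot be told apart.

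The line numbers of 2 iPSC libraries went against the other libraries of the same lines. In the 15 libraries of sorted intermediates, 43 genes differed between the 3 lines (limma, adjusted p under 0.001 and a deviation over 0.5 on the log2 scale), a choice that used neither MEF nor iPSC. Over these 43 genes the MEF libraries matched their own line with a correlation of 0.77, 0.72 and 0.63. The iPSC library labelled line 1 matched line 1 at 0.86. The iPSC library labelled line 2 matched line 3 at 0.84 and its own line at -0.39, and the iPSC library labelled line 3 matched line 2 at 0.92 and its own line at -0.43. Gm15772, named after its values were seen, was low in MEF of line 2 (86, 14.4 and 83.3 CPM) and low in the iPSC library labelled line 3 (120, 104 and 15.5 CPM). Pcna-ps2 was detected well above the other lines in MEF of line 2 (0.117, 9.93 and 0.236 CPM) and in the iPSC library labelled line 3 (1.2, 1.08 and 28.4 CPM). The test below does not pair libraries by line, so its results do not rest on these numbers, and "line 2" and "line 3" of the iPSC mean the libraries so labelled.

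**Figure D1:**
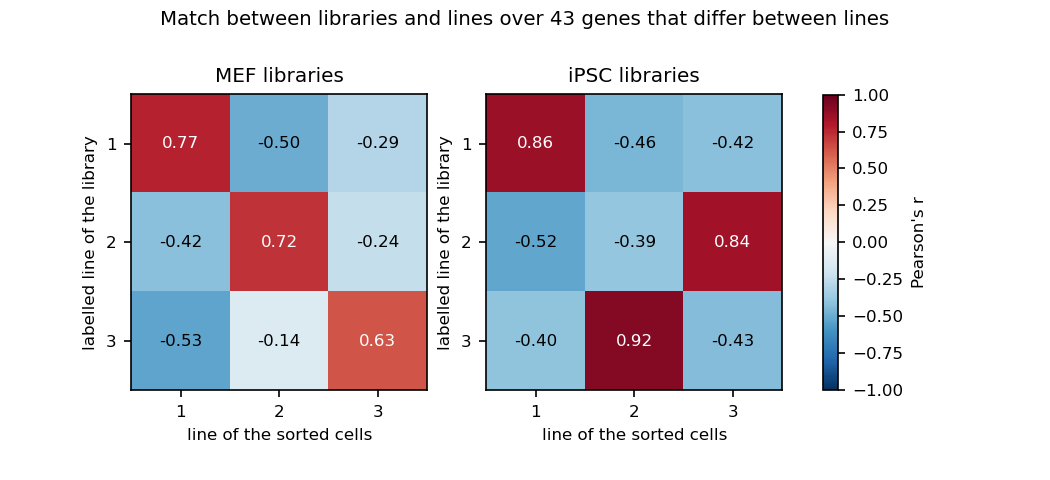
Pearson's r between each library and the sorted cells of each line, over the 43 genes that differ between lines, with MEF libraries on the left and iPSC libraries on the right. Rows are the labelled lines and columns the lines of the sorted cells. MEF libraries are highest on the diagonal (0.77, 0.72 and 0.63), while the iPSC libraries labelled line 2 and line 3 are highest in each other's column (0.84 and 0.92).

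The change between MEF and iPSC reached most of the transcriptome. Of 48321 gene names, 16132 had enough counts to be tested, and 12465 of them (77.3%) differed at an adjusted p under 0.05 (edgeR's quasi-likelihood test, Benjamini-Hochberg over all tested genes). Of the tested genes 6114 (37.9%) were higher in iPSC and 6351 (39.4%) were lower. A stricter test against a 2-fold change called 6290 genes (39.0%), 2837 higher (17.6%) and 3453 lower (21.4%). The median log2 fold change over all tested genes was 0.02 with the scaling used. These shares are the background for every gene list below. With library totals in place of scaling factors the median was 0.313, and the share of called genes that were higher moved from 49.0% to 59.1%. A direction is therefore relative to the scaled libraries, and small changes depend on it.

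Both ends of the change were steep. The fitted change was at least 8-fold for 1469 higher and 1241 lower genes. In MEF, 38 genes had no count in any library but a mean of at least 10 CPM in iPSC, and 0 genes showed the opposite pattern. The 3453 genes that were lower past 2-fold took 40% of all counts in MEF and 8.84% in iPSC, and the 2837 higher genes went from 3.18% to 17.2%. At the other end, 5842 tested genes (36.2%) had a 95% interval of the change that lay within 2-fold in either direction.

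**Figure D2:**
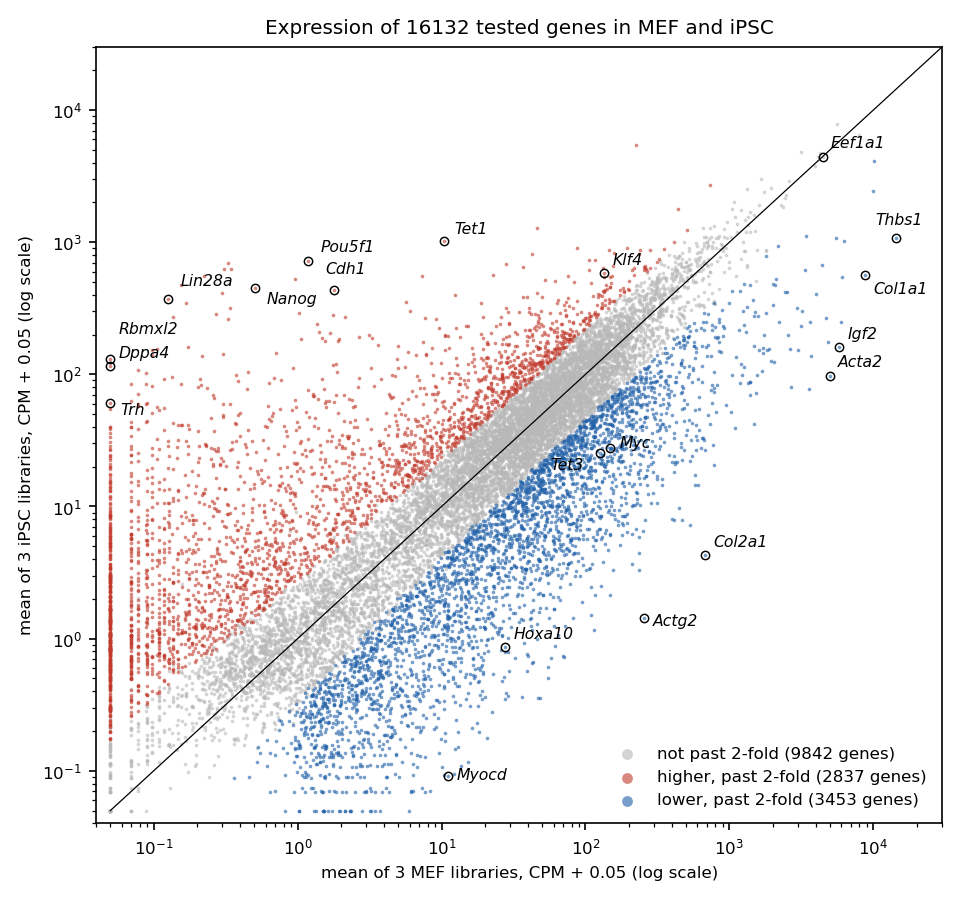
Mean level in 3 MEF libraries (horizontal) and 3 iPSC libraries (vertical) of the 16132 tested genes, in CPM plus 0.05 on log scales, with genes past 2-fold coloured and the diagonal marking equal levels. Named genes are circled: the pluripotency genes sit at the upper left, the matrix and contractile genes at the lower right, and Eef1a1 on the diagonal.

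The 12 largest rises were in genes silent or nearly silent in MEF. Rises were ranked by fitted fold change where the iPSC average reached 10 CPM, so this low starting level was largely set by that choice. Rbmxl2, a germ cell RNA-binding protein gene, had no count in MEF and stood at 141, 128 and 124 CPM in iPSC, at least 647-fold higher when 3 counts a library are taken as the floor for MEF. Dppa4, a chromatin factor of early embryos (chr16:48283735-48294292), had no count in MEF and 111, 118 and 115 CPM in iPSC, at least 567-fold higher. These levels were alike in the 3 clones. Trh, which encodes thyrotropin-releasing hormone, was at 0 in MEF and at 58, 51.7 and 73.5 CPM in iPSC. Triml2 (62.9, 51.7 and 49.9 CPM), Foxh1 (34.1, 43.8 and 42.6 CPM), Cnpy1, Sohlh2, Olig2 and Triml1 were also at 0 in all MEF libraries. FOXH1 is a DNA-binding partner of SMAD proteins in Nodal signalling, and OLIG2 is better known from the oligodendrocyte lineage. Lefty2, a Nodal antagonist, differed most between the clones of these 12 genes, at 31.4, 20.8 and 63.5 CPM, and was at least 191-fold above MEF.

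Several of the 12 largest falls were in genes known from muscle or cartilage. Falls were ranked only where the MEF average reached 10 CPM, so their clear starting level was set by that choice. Col2a1, the collagen of cartilage (chr15:97975602-98004695), stood at 673, 708 and 644 CPM in MEF and at 3.25, 5.7 and 3.79 CPM in iPSC (log2 fold change -7.29 ± 0.15 SE, adjusted p = 9.98e-20). Actg2, the smooth muscle gamma actin, was at 268, 237 and 259 CPM against 0.424, 2.74 and 0.993 CPM (-7.45 ± 0.32). Kdr, the VEGF receptor 2, was at 45.9, 43.2 and 50.5 CPM against 0.141, 0.399 and 0.373 CPM (-7.18 ± 0.29). The groups lay far apart for all 3 genes, with Kdr under 0.4 CPM in every clone and Col2a1 still detected. Myocd, the coactivator that drives smooth muscle genes, fell from 12.8, 8.08 and 12.5 CPM to 0, 0 and 0.124 CPM. Actc1, Tnnt2, Myl1, Adra1b, Krt80, Col19a1, Map3k7cl and Ptprq completed the 12 largest falls, each past a fitted log2 change of -6.8.

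All 19 tested genes of the core pluripotency list were higher past 2-fold, with a median log2 fold change of 11.28 (10.93 with genes at 0 in MEF taken at their floor). Pou5f1 (chr17:35506018-35510772), which encodes OCT4 and gives its name to the GFP transgene, stood at 1.47, 1.01 and 0.946 CPM in MEF and at 689, 808 and 675 CPM in iPSC (log2 fold change 9.28 ± 0.20 SE, adjusted p = 2.08e-19). Nanog, a homeobox gene of the same network, stood at 0.411, 0.589 and 0.355 CPM against 477, 438 and 448 CPM (9.99 ± 0.17). Sall4, a zinc finger partner of OCT4, stood at 545, 577 and 547 CPM in iPSC and at no more than 0.235 CPM in MEF (11.57 ± 0.13). The MEF libraries held 8 counts of Sall4 in all, so this SE understates its counting error. In all 3 genes the 3 clones lay close together and far above every MEF library. Lin28a, the RNA-binding protein that blocks let-7 maturation, reached 338, 459 and 319 CPM and Dppa5a 559, 486 and 375 CPM, both from under 0.3 CPM. The smallest changes of the list were those of Rif1 (2.78 ± 0.12), a factor of replication timing, and Mycn (5.50 ± 0.27). Sox2 had no count in any library: 100% of it overlaps a longer gene on the same strand, and the authors' counting left out reads shared by genes, so its level was not measured.

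Zfp42, whose product REX1 is a standard marker of the naive state, stood at 0.0587, 0 and 0 CPM in MEF and at 79.8, 89.4 and 86.5 CPM in iPSC (11.46 ± 0.31). Its promoter is shown because it holds the octamer ATGCAAAT, the letters that POU factors such as OCT4 bind, searched on both strands. The sequence runs from 250 bases before to 50 after the annotated start (RefSeq, GRCm38.p6, chr8:43306960-43307259, minus strand), 5′ to 3′, and the capitals mark the octamer read from the other strand, 186 bases before the start.
Zfp42 promoter: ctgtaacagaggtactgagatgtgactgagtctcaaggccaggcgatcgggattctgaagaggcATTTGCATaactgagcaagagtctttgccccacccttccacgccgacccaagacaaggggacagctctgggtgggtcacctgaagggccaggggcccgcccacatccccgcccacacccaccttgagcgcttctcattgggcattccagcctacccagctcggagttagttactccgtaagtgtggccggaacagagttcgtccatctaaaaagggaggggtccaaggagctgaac
The octamer occurs in 1.74% of all 32851 promoters of this length. The match describes the letters, and whether a factor binds there was not tested.

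Of 22 tested genes of the naive state, 20 were higher and 1 was lower, with a median log2 fold change of 7.12. Esrrb, an orphan nuclear receptor, stood at 0.411, 0.253 and 0.177 CPM in MEF and at 734, 681 and 687 CPM in iPSC (11.23 ± 0.16). Nr0b1 reached 203, 157 and 109 CPM, Tfcp2l1 469, 553 and 557 CPM, and Prdm14, a repressor of FGF signalling and DNA methylation genes, 23, 22.5 and 27.3 CPM. Klf4 was already present in MEF at 137, 140 and 125 CPM and stood at 644, 490 and 617 CPM in iPSC (2.13 ± 0.12). The list therefore joined genes that were off in MEF with genes that rose from a clear starting level. Bmp4 was the member that fell, from 84.1, 74.9 and 87.3 CPM to 17, 21.1 and 28.3 CPM. Stat3, the transcription factor downstream of LIF, was not called, at 152, 148 and 150 CPM against 144, 143 and 140 CPM (-0.07 ± 0.06, adjusted p = 0.273).

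Genes of the formative and primed states, which mark cells on the way out of the naive state, were also mostly higher: 12 of 16 tested were higher and 3 lower, with a median of 4.53. Nodal stood at 0, 0.168 and 0 CPM in MEF and at 51.4, 58.8 and 60.1 CPM in iPSC (10.09 ± 0.34). Otx2, a homeobox gene of the formative state, was uneven among clones at 32.6, 6.1 and 27.9 CPM. Fgf5, the usual marker of primed cells, fell from 6.1, 8 and 6.21 CPM to 0.141, 0.628 and 0.248 CPM (-4.23 ± 0.46). Sall2 and Krt18 also fell, and Lef1 was not called (0.14 ± 0.30, adjusted p = 0.673), though without the iPSC library of line 2 it was (0.53). Myc, a reprogramming factor that fibroblasts use for growth, fell from 145, 149 and 147 CPM to 18.5, 41.4 and 22.7 CPM (-2.41 ± 0.22).

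**Figure D3:**
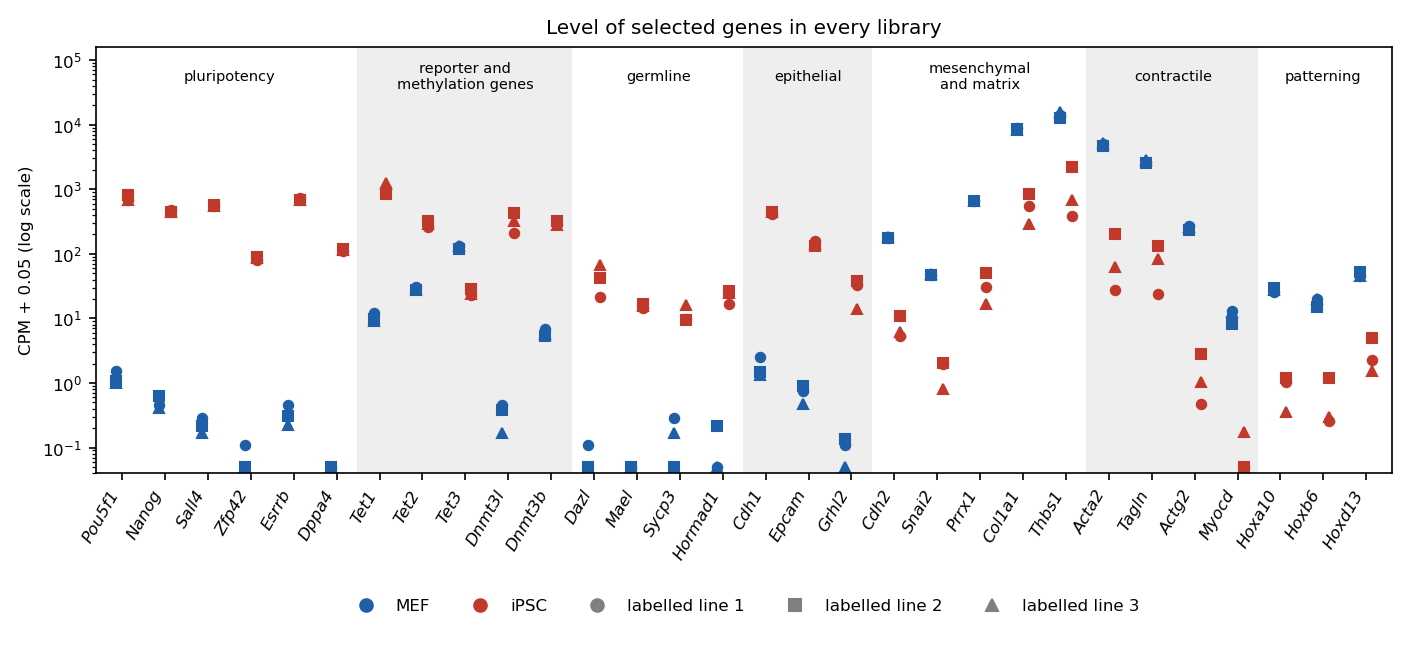
Level of 30 genes in every library, in CPM plus 0.05 on a log scale, with MEF in blue, iPSC in red and marker shape giving the labelled line. The groups do not overlap for any gene drawn. The iPSC libraries are tight for pluripotency genes and spread out for fibroblast genes such as Thbs1 (382, 2180 and 673 CPM).

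The enzymes that write and remove cytosine methylation changed member by member. Tet1 (chr10:62804570-62899118), which gives its name to the mCherry transgene, stood at 12.1, 9.68 and 9.16 CPM in MEF and at 1000, 833 and 1240 CPM in iPSC (log2 fold change 6.63 ± 0.17, adjusted p = 5.12e-18). Tet2 went from 30.7, 27.4 and 28 CPM to 265, 325 and 292 CPM (3.36 ± 0.12). Tet3, the family member of the zygote and of differentiated cells, fell from 130, 120 and 131 CPM to 23.1, 28.6 and 23.8 CPM (-2.33 ± 0.12). The 3 oxidases thus moved in different directions in every clone. Dnmt3l, the cofactor of new methylation in germ cells, went from under 0.5 CPM to 211, 428 and 318 CPM (10.09 ± 0.40), and Dnmt3b from 6.92, 5.3 and 5.68 CPM to 287, 327 and 283 CPM (5.64 ± 0.12). Dnmt3a rose less, from 124, 120 and 117 CPM to 243, 284 and 193 CPM (1.00 ± 0.11), and was not past 2-fold. Among 13 writers and readers 8 were higher (61.5%) and 5 lower (38.5%), against 37.9% and 39.4% over all tested genes. The share of lower members was thus near the background. Uhrf1, which guides DNMT1 to new DNA, rose (2.08 ± 0.08) while its relative Uhrf2 fell (-1.32 ± 0.09). Zfp57 and Trim28, which protect imprints, rose by 2.33 ± 0.08 and 2.00 ± 0.11. Among 12 demethylation genes 6 were higher (50%) and 3 lower (25%), with Ung (3.12 ± 0.09) and Gadd45a (2.26 ± 0.15) among the higher and Neil3 (-1.07 ± 0.18) among the lower.

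The miR-290 cluster of chromosome 7 encodes the main microRNA family of mouse pluripotent cells. The mature 3p arms are shown because most of them share the letters of the seed, bases 2 to 8, by which a microRNA pairs with its targets. Sequences are from RefSeq (GRCm38.p6), 5′ to 3′, with the seed in capitals.
mmu-miR-290a-3p: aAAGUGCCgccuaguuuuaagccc
mmu-miR-291a-3p: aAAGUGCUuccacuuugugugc
mmu-miR-291b-3p: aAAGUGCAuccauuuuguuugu
mmu-miR-293-3p: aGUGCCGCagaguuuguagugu
mmu-miR-294-3p: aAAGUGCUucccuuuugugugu
mmu-miR-295-3p: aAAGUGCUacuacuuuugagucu
The full seed AAGUGCU is common to 3 of these arms, and its first 6 letters to 5 of them.

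Counts on the hairpins of the cluster come from precursor RNA in a poly(A) library and do not measure mature microRNA. Over the 7 hairpins the MEF libraries held 0, 1 and 0 counts and the iPSC libraries 112, 212 and 104. All 7 hairpins were higher past 2-fold. Mir295 had 46, 60 and 26 counts in iPSC and none in MEF. The related Mir302 cluster had no count in either group. The host gene of the miR-17-92 cluster, Mir17hg, rose from 158, 108 and 145 counts to 1063, 1017 and 949 counts, and Mir99ahg fell from 104, 58 and 93 counts to 4, 2 and 4 counts. On the LIN28 side, Lin28b (1.35, 1.18 and 2.13 against 27.6, 26.6 and 39 CPM), Trim71 (6.24 ± 0.14) and Igf2bp1 (2.24 ± 0.10) rose. Hmga2, a let-7 target that is abundant in embryonic mesenchyme, fell from 1700, 1750 and 1710 CPM to 103, 182 and 188 CPM (-3.45 ± 0.21). Of the 11 tested genes of this group 7 were higher and 3 lower.

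Germline genes were higher in iPSC as a broad group. Of 39 tested, 34 were higher, all past 2-fold, and 1 was lower, with a median log2 fold change of 6.21 (5.3 with genes at 0 in MEF at their floor). Members at 0 in MEF passed the count filter through other libraries, so no fall could be called for them. Dazl, a translational regulator of germ cells, stood at 0.0587, 0 and 0 CPM in MEF and at 21.6, 41.5 and 68 CPM in iPSC (10.50 ± 0.60). Mael, of the piRNA pathway that silences transposons, had no count in MEF and 14.6, 16.7 and 15.6 CPM in iPSC, and Rpl10l, the testis copy of a ribosomal protein gene, had 31.6, 31.2 and 17.9 CPM. Meiotic genes belonged to the same group. Hormad1, of the meiotic chromosome axis, went from 0, 0.168 and 0 CPM to 16.4, 27 and 25 CPM, and Sycp3, of the synaptonemal complex, from 0.235, 0 and 0.118 CPM to 9.76, 9.53 and 15.8 CPM. Some members differed between clones, such as Dazl, Hormad2 (9.97, 23.1 and 36.9 CPM) and Rhox5 (134, 54.7 and 108 CPM), while Mael was even. Tdrkh fell (-1.90 ± 0.20), although 22.8% of its length overlaps another gene on the same strand, and Smc1a, the general cohesin subunit, was not called (0.01 ± 0.14).

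The promoters of Sycp3 and Hormad1 are shown because they hold the E-box CACGTG more than once, the letters bound by MAX dimers, and Hormad1 also GGCGGGAA, an E2F-type motif. Both were searched on both strands in windows from 250 bases before to 50 after the start (RefSeq, GRCm38.p6), printed 5′ to 3′ with matches in capitals. The Sycp3 window is chr10:88459337-88459636 on the plus strand, with matches 64 and 43 bases before the start. The Hormad1 window is chr3:95559427-95559726 on the plus strand, with GGCGGGAA 96 and CACGTG 57 and 20 bases before the start.
Sycp3 promoter: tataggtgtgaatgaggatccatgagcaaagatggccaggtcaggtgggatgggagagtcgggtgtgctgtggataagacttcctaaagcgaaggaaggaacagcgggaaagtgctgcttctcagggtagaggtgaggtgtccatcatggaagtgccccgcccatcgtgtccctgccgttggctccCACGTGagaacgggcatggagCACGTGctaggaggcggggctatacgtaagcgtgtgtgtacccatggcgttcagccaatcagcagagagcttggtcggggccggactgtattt
Hormad1 promoter: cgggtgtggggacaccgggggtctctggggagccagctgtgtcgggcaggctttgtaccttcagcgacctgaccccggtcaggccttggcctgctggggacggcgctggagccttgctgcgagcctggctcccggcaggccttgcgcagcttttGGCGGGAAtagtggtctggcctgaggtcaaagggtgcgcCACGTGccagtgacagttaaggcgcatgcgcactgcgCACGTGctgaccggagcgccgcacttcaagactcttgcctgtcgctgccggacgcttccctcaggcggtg
CACGTG was found in 13 of the 34 germline promoters with a match in the table (38.2%), in 9.96% of the promoters of tested genes and in 7.15% of all promoters. GGCGGGAA was found in 5 of the 34 (14.7%), against 4.14% of tested genes and 2.19% of all. Only 69.8% of tested genes matched a promoter, so these shares describe the matched genes and are no comparison of sets.

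Transcripts of the 2-cell-like state, a rare state in which pluripotent cultures use genes of the early cleavage embryo, were few in iPSC. Of 14 list members in the table only 6 had enough counts to be tested, and all 6 were higher. Eif1a, which MEF also express, rose from 212, 212 and 224 CPM to 286, 342 and 326 CPM (0.56 ± 0.08). The other 5, past 2-fold, were Zscan4 copies at low levels. Being near 0 in MEF, these copies passed the count filter through other libraries, so no fall could be called for them. Zscan4d had no count in MEF and 1.91, 4.11 and 3.85 CPM in iPSC, and the Zscan4 copies were called together although reads shared between near-identical copies make each copy's value uncertain. Zfp352 stood at 0.0707, 0.628 and 0.621 CPM in iPSC and had too few counts to be tested.

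The adhesion genes of epithelia rose while the regulators of mesenchyme fell. Of 26 epithelial genes 23 were higher and 2 lower, with a median log2 fold change of 5.09 (4.41 with floors). Cdh1, which encodes E-cadherin (chr8:106603351-106670246), went from 2.46, 1.43 and 1.3 CPM to 419, 443 and 437 CPM (7.94 ± 0.15, adjusted p = 3.14e-20). Epcam went from under 1 CPM to 156, 131 and 143 CPM (7.80 ± 0.14). Grhl2, a transcription factor of epithelial identity, reached 32.3, 37.4 and 13.7 CPM, and the tight junction gene Tjp3 33.5, 12.7 and 16.6 CPM from 0. The exceptions were keratins of simple epithelia: Krt19 fell from 72.5, 80.3 and 82.5 CPM to 2.19, 1.88 and 3.48 CPM (-4.96 ± 0.25), and Krt18 fell (-1.88 ± 0.21). Krt8 was not called (0.53 ± 0.26, adjusted p = 0.0669), though it was without MEF of line 1 (0.87) or iPSC of line 1 (0.76). It was also called with DESeq2 (0.55) and with library totals alone (0.82).

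Among 24 mesenchymal regulators 23 were lower and 1 higher, with a median of -4.10. Cdh2, which encodes N-cadherin, fell from 179, 175 and 180 CPM to 5.3, 10.8 and 6.21 CPM (-4.56 ± 0.29). Snai2, a repressor of Cdh1, fell from 47.5, 46.4 and 48 CPM to 1.91, 2 and 0.745 CPM (-4.92 ± 0.41), and Foxc1 from 44.7, 40.2 and 41.3 CPM to 1.2, 1.54 and 0.869 CPM. The limb and mesenchyme gene Prrx1 stood at 652, 660 and 659 CPM in MEF and at 30.6, 50.5 and 16.9 CPM in iPSC (-4.32 ± 0.36). For each of these genes the groups were far apart, and the iPSC library of line 2 was the highest iPSC library. Zeb1 fell least among the factors of this list (-1.06 ± 0.14), and Osr2 was the member that rose, from 2.52, 3.45 and 2.84 CPM to 4.53, 4.91 and 5.65 CPM.

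Matrix genes, which made up a large share of MEF transcripts, fell as a group. Of 30 genes of collagens and structural matrix 28 were lower and 1 higher (2 without the iPSC library of line 3), with a median of -3.09, and their summed level went from 65500, 63900 and 65400 CPM to 6320, 10800 and 4960 CPM. Col1a1, the main chain of type I collagen (chr11:94936224-94953042), fell from 9000, 8680 and 8410 CPM to 546, 844 and 289 CPM (-3.96 ± 0.40, adjusted p = 1.85e-07). Thbs1, a matrix glycoprotein that activates TGF-beta, fell from 14300, 12800 and 16000 CPM to 382, 2180 and 673 CPM (-3.74 ± 0.53). Col12a1 (-5.52 ± 0.45), Fbn2 (-6.17 ± 0.27), Fbln5 (-5.61 ± 0.37) and Eln (-5.32 ± 0.37), of fibril and elastic fibre assembly, fell furthest within this list. Fn1, which encodes fibronectin, fell less, from 9930, 9790 and 9900 CPM to 2730, 2510 and 2030 CPM (-2.03 ± 0.09).

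The genes that finish, crosslink and remodel matrix followed. Of 26 processing genes 24 were lower and 1 higher, with a median of -3.04. Lox, the lysyl oxidase that crosslinks collagen, fell from 3810, 3420 and 3910 CPM to 77.1, 248 and 85.9 CPM (-4.76 ± 0.53), and Adamts5, an aggrecanase, by 6.16 ± 0.42 on the log2 scale. The collagen hydroxylase P4ha1 was even across clones, at 45, 33 and 39.1 CPM against 342, 318 and 322 CPM. Basement membrane genes divided by chain: 12 of 16 were lower and 3 higher, with a median of -2.21. Col4a1 and Col4a2 fell by 4.08 ± 0.23 and 3.99 ± 0.23, whereas Lama1, the laminin chain of the early embryo, rose from 17.3, 16.8 and 16 CPM to 78.9, 94.8 and 172 CPM (2.79 ± 0.21). Lama5 and Agrn rose less (0.67 ± 0.15 and 0.77 ± 0.15), and Nid2 was not called (0.12 ± 0.19, adjusted p = 0.583). Of 24 integrin and adhesion genes 22 were lower and none was higher by the main test. Zyx (-4.30 ± 0.22) and Parva (-4.07 ± 0.19), of focal adhesions, fell furthest with Itga8 (-4.09 ± 0.31), while Itga6, a laminin receptor chain, was at 227, 288 and 248 CPM against 262, 280 and 272 CPM and was called (0.21) only without the MEF library of line 2 among the libraries left out in turn.

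Lum and Mmp3 went against their lists. Lum, a small proteoglycan, stood at 8.04, 8.76 and 5.56 CPM in MEF and at 23.6, 48.5 and 13.6 CPM in iPSC (1.95 ± 0.40), and Mmp3, a stromelysin, went from 3.58, 5.56 and 3.43 CPM to 29.6, 60.1 and 14.2 CPM (3.07 ± 0.45). Dcn, at 31.9, 65.9 and 25.8 CPM in iPSC, was not called (0.61 ± 0.34, adjusted p = 0.109), except without the iPSC library of line 3 (0.87) or with library totals alone (0.9). All 3 genes ranked the clones in 1 order, line 2 above line 1 above line 3, and so did the fibroblast marker sum. In the sorted day 14 mCherry+ GFP+ cells of the same lines they stood lower, at 8.54 ± 2.14, 6.14 ± 1.82 and 9.58 ± 3.02 CPM for Lum, Mmp3 and Dcn (SD, n = 3). Xist, the noncoding RNA of the inactive X in female cells, also followed this order: 0.0587, 0.337 and 0.0591 CPM in MEF and 28.2, 57.7 and 25.4 CPM in iPSC (8.05 ± 0.54, adjusted p = 3.17e-11), although all lines are labelled male. The part of remaining feeder cells in these 4 genes was not tested.

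Line 2 was often the highest clone among lower genes, though the order of lines 1 and 3 varied. Among 2348 genes that were lower past 2-fold and had at least 10 CPM in MEF, the highest iPSC library was line 2 for 1480 (63%), line 1 for 522 and line 3 for 346. The same share over all tested genes is not given here, so 63% cannot be called particular to lower genes. Each fibroblast marker's iPSC level as a percent of its MEF mean had a median of 11.1% in line 1, 19.4% in line 2 and 7.28% in line 3. Prrx1, the lowest of the 12, stood at 4.66%, 7.69% and 2.57%. Other lower genes reached far below that, such as Col2a1 and Actg2 above. Without the iPSC library of line 2, the test against 2-fold called 6406 genes, 2941 higher and 3465 lower.

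The genes of contraction fell as a whole. All 23 tested genes of actin and contraction were lower, 22 of them past 2-fold, with a median of -3.74. Acta2, the smooth muscle actin of activated fibroblasts (chr19:34241090-34255336), stood at 4960, 4660 and 5280 CPM in MEF and at 27.4, 202 and 62.6 CPM in iPSC (-5.67 ± 0.56, adjusted p = 1.55e-07). Tagln fell from 2620, 2570 and 2890 CPM to 24.1, 134 and 82 CPM (-5.07 ± 0.43), Cnn1 by 5.69 ± 0.38 and Myh11 by 5.62 ± 0.26. The abundant nonmuscle motors fell less, Myh9 from 5440, 5630 and 5530 CPM to 985, 1160 and 1080 CPM (-2.36 ± 0.09). Srf, the factor that binds CArG boxes in these genes, fell least (-0.61 ± 0.10) and not past 2-fold.

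Skeletal and cardiac muscle genes, present at low levels in MEF, fell too: 15 of 17 tested were lower and 2 higher, with a median of -4.49. Myod1 and Myog, the muscle-determining factors, went from 7.16, 8.08 and 7.51 CPM and 11.7, 8.42 and 8.75 CPM to under 0.15 CPM in every clone. Actc1, the cardiac actin, went from 58, 40.1 and 47.5 CPM to 0, 0.228 and 0.683 CPM (-7.24 ± 0.39). Mylpf, a myosin light chain, rose from 20.8, 22.4 and 18 CPM to 110, 151 and 102 CPM (2.57 ± 0.14). Ttn was uneven, at 31.7, 152 and 164 CPM against 61.5, 50.3 and 43.5 CPM (1.17 ± 0.39), and its call was lost in the fit of the 6 libraries alone (1.31) and without the iPSC library of line 2 (0.96) or line 3 (0.85).

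The promoters of Myl9, a smooth muscle myosin light chain that went from 421, 387 and 457 CPM to 4.6, 34.2 and 23.7 CPM, and of Actc1 are shown with their CArG box, the serum response element read by SRF. Windows and build are as above, matches are in capitals, and the first base of the box lies 161 bases before the Myl9 start (chr2:156775214-156775513, plus strand) and 47 before the Actc1 start (chr2:114052826-114053125, minus strand).
Myl9 promoter: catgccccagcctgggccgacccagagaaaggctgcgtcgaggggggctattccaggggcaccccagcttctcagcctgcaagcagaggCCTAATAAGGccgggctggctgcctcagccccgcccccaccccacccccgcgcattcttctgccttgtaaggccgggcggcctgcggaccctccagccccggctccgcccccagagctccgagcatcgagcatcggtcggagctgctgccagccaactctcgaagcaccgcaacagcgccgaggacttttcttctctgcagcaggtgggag
Actc1 promoter: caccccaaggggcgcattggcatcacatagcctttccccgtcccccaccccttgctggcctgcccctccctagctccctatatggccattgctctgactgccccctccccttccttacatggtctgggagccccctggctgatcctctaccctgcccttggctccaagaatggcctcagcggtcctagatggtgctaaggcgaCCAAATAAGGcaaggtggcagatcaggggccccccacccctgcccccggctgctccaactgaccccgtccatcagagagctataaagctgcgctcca
A CArG box was found in the windows of 4 of 19 matched genes of the actin list (21.1%), Cnn2, Myl9, Srf and Vcl, and in 1.33% of tested genes and 1.63% of all promoters. The windows of Acta2 and Cnn1, which fell further than these 4 genes, held none. With only 69.8% of tested genes matched to a promoter, these shares too are no comparison of sets.

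Of 22 TGF-beta and activin genes 21 were lower and none was higher, with a median of -2.64. Tgfb3 fell from 417, 383 and 445 CPM to 4.81, 14.8 and 4.16 CPM (-5.69 ± 0.33) and Tgfb2 from 140, 117 and 142 CPM to 2.9, 6.22 and 2.05 CPM (-5.13 ± 0.29). Inhba, the activin A chain, fell from 446, 458 and 507 CPM to 4.95, 46.1 and 16.5 CPM. The receptor Tgfbr1 fell less than any of these ligands (-1.12 ± 0.10), and Inhbb was not called. The Nodal branch went the other way. Of 21 BMP and Nodal genes 6 were higher and 13 lower: Nodal, Lefty1, Lefty2, the coreceptor Tdgf1 (11.17 ± 0.23), Gdf3 (10.27 ± 0.22) and the receptor Acvr2b (3.32 ± 0.23) rose. The BMP antagonist gene Nog fell (-4.81 ± 0.38).

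Of 28 genes of PDGF, FGF, EGF and IGF signalling 21 were lower and 6 higher, with a median of -2.33. Fgf4, the FGF that pluripotent cells make themselves, went from under 0.2 CPM to 288, 288 and 245 CPM (11.48 ± 0.28), and Kit from 2.17, 0.926 and 2.31 CPM to 154, 86.1 and 119 CPM (5.98 ± 0.26). Pdgfrb fell from 306, 297 and 280 CPM to 18, 33.5 and 14 CPM (-3.75 ± 0.30), and Met by 4.51 ± 0.13. Within the FGF receptors, Fgfr1 fell (-1.15 ± 0.08) and Fgfr2 rose slightly (0.37 ± 0.11). Of 29 WNT genes 9 were higher (31%) and 16 lower (55.2%), against 37.9% and 39.4% over all tested genes. The share of higher WNT genes was thus near the background. Wnt4 (-5.80 ± 0.22), Wnt11 (-4.61 ± 0.36), Fzd1 (-4.26 ± 0.27) and Fzd2 (-3.97 ± 0.23) fell, and Fzd5 rose from 28.1, 28.1 and 31.9 CPM to 252, 238 and 245 CPM (3.06 ± 0.09).

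The LIF pathway, which keeps mouse pluripotent cells in the naive state, had 6 higher (35.3%) and 9 lower (52.9%) of 17 genes, of which the share of higher genes was near that over all genes. Lifr rose from 44.2, 41.6 and 40.6 CPM to 91.6, 112 and 155 CPM (1.5 ± 0.14) while the shared receptor chain Il6st fell (-1.16 ± 0.09) and Osmr fell (-2.57 ± 0.37). Socs3, the feedback inhibitor, rose from 20.9, 23.7 and 13.6 CPM to 192, 176 and 195 CPM (3.28 ± 0.18) and Socs2 by 2.57 ± 0.10. Jak2 fell (-2.84 ± 0.19). In the YAP and TEAD group 12 of 15 were lower and 2 higher: the target Ankrd1 fell from 149, 134 and 183 CPM to 0.849, 6.79 and 2.05 CPM (-5.53 ± 0.40), Amot by 4.54 ± 0.19 and Axl by 5.12 ± 0.37, whereas Yap1 itself changed little (-0.27 ± 0.06, and 0.03 with library totals alone). Tead4 rose (0.64 ± 0.07), and the rise of Ajuba (0.36 ± 0.14) was lost without MEF of line 1 (0.37) or 2 (0.31) and without iPSC of line 2 (0.31) or 3 (0.34).

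The Hox genes, which record body position, fell together. All 27 tested Hox genes were lower past 2-fold, with a median of -4.44 (-4.41 with genes at 0 in iPSC at their floor). Hoxa10 fell from 25.8, 29.6 and 27.2 CPM to 0.99, 1.14 and 0.31 CPM (-5.06 ± 0.31), Hoxb6 from 19.9, 15.2 and 20 CPM to 0.212, 1.14 and 0.248 CPM, and Hoxd13, of the distal limb, from 45.9, 53.2 and 45.2 CPM to 2.19, 4.85 and 1.49 CPM. Hoxa3, Hoxa4, Hoxa5, Hoxa6, Hoxc6, Hoxc8, Hoxc9 and Hoxd4 had no count in any of the 6 libraries. Each of these 8 genes overlaps longer genes on its strand over 100% of its length, and shared reads were not counted. In each of the 4 clusters the tested neighbours fell together, in unbroken runs of 13 tested genes on chromosome 6, 10 on chromosome 11, 8 on chromosome 2 and 6 on chromosome 15.

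The Polycomb complexes, which silence Hox clusters in pluripotent cells, changed in their subunits. Of 12 PRC2 genes 7 were higher and 1 lower. Jarid2 rose from 23.5, 23.2 and 21.8 CPM to 533, 596 and 561 CPM (4.63 ± 0.08, adjusted p = 1.26e-20), Mtf2 from 64.5, 59.4 and 59.4 CPM to 431, 512 and 572 CPM (3.05 ± 0.09), and the core subunits Eed and Suz12 by 2.09 ± 0.08 and 1.65 ± 0.10. Phf1 fell (-1.19 ± 0.14). The PRC1 list had 11 higher and 10 lower of 23, close to the background shares, but its paralogs went apart. Cbx7 rose from 1.53, 1.85 and 1.54 CPM to 225, 206 and 191 CPM (6.99 ± 0.15), and its paralog Cbx8 fell (-2.80 ± 0.29). Phc1 rose (3.29 ± 0.10), and Phc2 fell (-2.62 ± 0.07). Among histone variants and chaperones 11 of 19 were higher and 4 lower, with H2afz (1.65 ± 0.08), Daxx (1.75 ± 0.10) and Chaf1b (1.78 ± 0.09) higher and the linker histone gene H1f0 lower (-1.87 ± 0.09).

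Runs of at least 5 neighbouring tested genes that all passed 2-fold in 1 direction numbered 25 for higher and 36 for lower genes. The longest higher runs, of 10 and 9 genes on chromosome 4, held zinc finger and predicted genes that are similar in sequence, so their reads may be hard to place. Other higher runs held the miR-290 hairpins, the Rhox genes of the X chromosome, the Zscan4 copies and the metallothionein genes Mt1 to Mt4. Lower runs outside the Hox clusters held Acta2 with Fas and the Ifit genes, H19 with Igf2, and Dlk1 with Meg3 and Rian.

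Imprinted genes, of which 1 parental copy is normally silent, were mostly lower: 25 of 38 were lower and 7 higher, with a median of -1.22. Igf2, a fetal growth factor (chr7:142650766-142666816), fell from 6040, 5700 and 5730 CPM to 143, 275 and 65.2 CPM (-5.18 ± 0.42), and its neighbour H19 from 6180, 5990 and 5800 CPM to 211, 435 and 107 CPM (-4.58 ± 0.40). Both kept the order of the fibroblast markers among clones. Dlk1 fell from 633, 564 and 613 CPM to 10.4, 23.6 and 9.56 CPM (-5.36 ± 0.29). Phlda2, a brake on placental growth, rose from 0.821, 0.505 and 0.946 CPM to 25, 42.1 and 55.1 CPM (5.69 ± 0.28). Peg10 and Zdbf2 rose less (0.67 ± 0.20 and 0.87 ± 0.25), and Impact was not called (-0.02 ± 0.08).

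The maternally expressed noncoding genes next to Dlk1 divided the clones. Meg3 (chr12:109541001-109571726) stood at 820, 702 and 854 CPM in MEF and at 41.2, 248 and 288 CPM in iPSC (-2.04 ± 0.43, adjusted p = 0.000488). Rian stood at 21.6, 178 and 271 CPM and Mirg at 2.26, 17.4 and 26.3 CPM in iPSC. The clone of line 1 was the lowest of all 21 libraries of the batch for Meg3 and Rian, where the other 20 ranged from 248 to 854 CPM and from 172 to 614 CPM.

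Replication genes rose by modest amounts. Of 28 cell cycle and replication genes 25 were higher and none lower, with a median of 1.10. Mcm10 rose from 43.7, 41.8 and 36.4 CPM to 232, 203 and 210 CPM (2.41 ± 0.08), Mcm2 by 1.85 ± 0.07 and Mcm5 by 1.70 ± 0.07. Several genes of mitosis changed less, such as Plk1 (0.39 ± 0.09) and Birc5 (0.33 ± 0.08), and Mki67, the standard proliferation marker, was not called (-0.23 ± 0.18, adjusted p = 0.255). Of 23 G1 control genes 7 were higher (30.4%) and 12 lower (52.2%), against 37.9% and 39.4% over all tested genes. Ccnd2 fell from 1540, 1550 and 1590 CPM to 101, 145 and 53 CPM (-3.97 ± 0.27), and Ccne1 rose from 68.8, 64.4 and 70.2 CPM to 198, 261 and 259 CPM (1.82 ± 0.09). The inhibitors Cdkn1a (-2.52 ± 0.18), Cdkn1c (-3.63 ± 0.20), Cdkn2b (-2.06 ± 0.26) and Cdkn2c (-3.34 ± 0.20) fell. Cdkn2a (11.4, 10.3 and 11 against 9.9, 13.5 and 4.41 CPM) and Cdkn1b were not called by the main test. Without the iPSC library of line 2 both were called (-0.59 and 0.34), and Cdkn1b also with library totals alone (0.38). Of 20 p53 targets 6 were higher (30%) and 12 lower (60%). Trp53 itself rose from 168, 162 and 162 CPM to 346, 350 and 395 CPM (1.15 ± 0.10), Ccng1 and Plk2 fell (-1.95 ± 0.12 and -3.31 ± 0.22), and Trp53inp1 rose (1.38 ± 0.11).

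Metabolic lists moved by small amounts, with a few large changes. Of 24 glycolysis genes 13 were higher and 5 lower (3 without the iPSC library of line 2), with a median of 0.35. The glucose transporter Slc2a3 rose from 46.1, 42.5 and 48.7 CPM to 1520, 1100 and 1230 CPM (4.81 ± 0.14), and Pdk1, which holds pyruvate back from mitochondria, from 16.4, 14.2 and 13.4 CPM to 262, 189 and 242 CPM (3.97 ± 0.11). Ldha fell (-1.22 ± 0.14) and Ldhb rose (2.31 ± 0.24). Respiratory chain genes were higher in 21 of 27 and lower in 2 (1 or 0 without some single libraries, among them the iPSC of line 2), and 1 passed 2-fold, Cox7a1, at 0.176, 0.253 and 0.177 CPM against 4.53, 2.57 and 3.54 CPM. In one-carbon metabolism 16 of 21 were higher and 2 lower, or 1 lower without any of the MEF libraries or the iPSC of line 3. Tdh, threonine dehydrogenase, on which mouse pluripotent cells depend, went from 0.235, 0.505 and 0 CPM to 353, 465 and 432 CPM (10.84 ± 0.30), Gldc from 1.53, 2.19 and 1.42 CPM to 409, 236 and 199 CPM (7.39 ± 0.29), and Phgdh, of serine synthesis, fell (-1.25 ± 0.20). Telomere genes were higher in 12 of 14, among them the shelterin gene Terf1 (2.20 ± 0.10), while Tert was not called (-0.15 ± 0.16, adjusted p = 0.379).

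Genes of translation were among those with narrow intervals around no change. Eef1a1 stood at 4420, 4550 and 4350 CPM in MEF and at 4930, 4220 and 4170 CPM in iPSC (0.00 ± 0.08), Eef2 at 3900, 4020 and 3950 CPM against 4320, 3590 and 3440 CPM (-0.06 ± 0.10), and Rack1 at 1290, 1280 and 1290 CPM against 1590, 1440 and 1400 CPM (0.20 ± 0.12). With library totals alone Eef1a1 and Rack1 were called higher (0.30 and 0.49).

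Of 25 antiviral and antigen presentation genes 8 were higher (32%) and 11 lower (44%), near the shares over all genes. B2m, the light chain of MHC class I, fell from 182, 176 and 183 CPM to 38.4, 65.1 and 26.9 CPM (-2.05 ± 0.30) and Ifit2 by 3.60 ± 0.36, whereas Ifitm1, known from pluripotent and germ cells, rose from 0.587, 1.43 and 0.946 CPM to 41.8, 24.2 and 25.1 CPM (4.99 ± 0.38). AP-1 genes were lower in 10 of 19 and higher in 3. Fosl1 and Fosl2 fell (-3.43 ± 0.26 and -4.40 ± 0.24), while Fos rose (1.21 ± 0.29), with line 1 at 296 CPM and the others at 162 and 157 CPM. Neural and neural crest genes were lower in 11 of 16: Nes, an intermediate filament gene, fell from 735, 778 and 782 CPM to 13, 41.1 and 33.2 CPM, and Stmn2, a microtubule regulator, rose from 13.6, 12.5 and 11.5 CPM to 215, 215 and 243 CPM (4.16 ± 0.16).

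**Figure D4:**
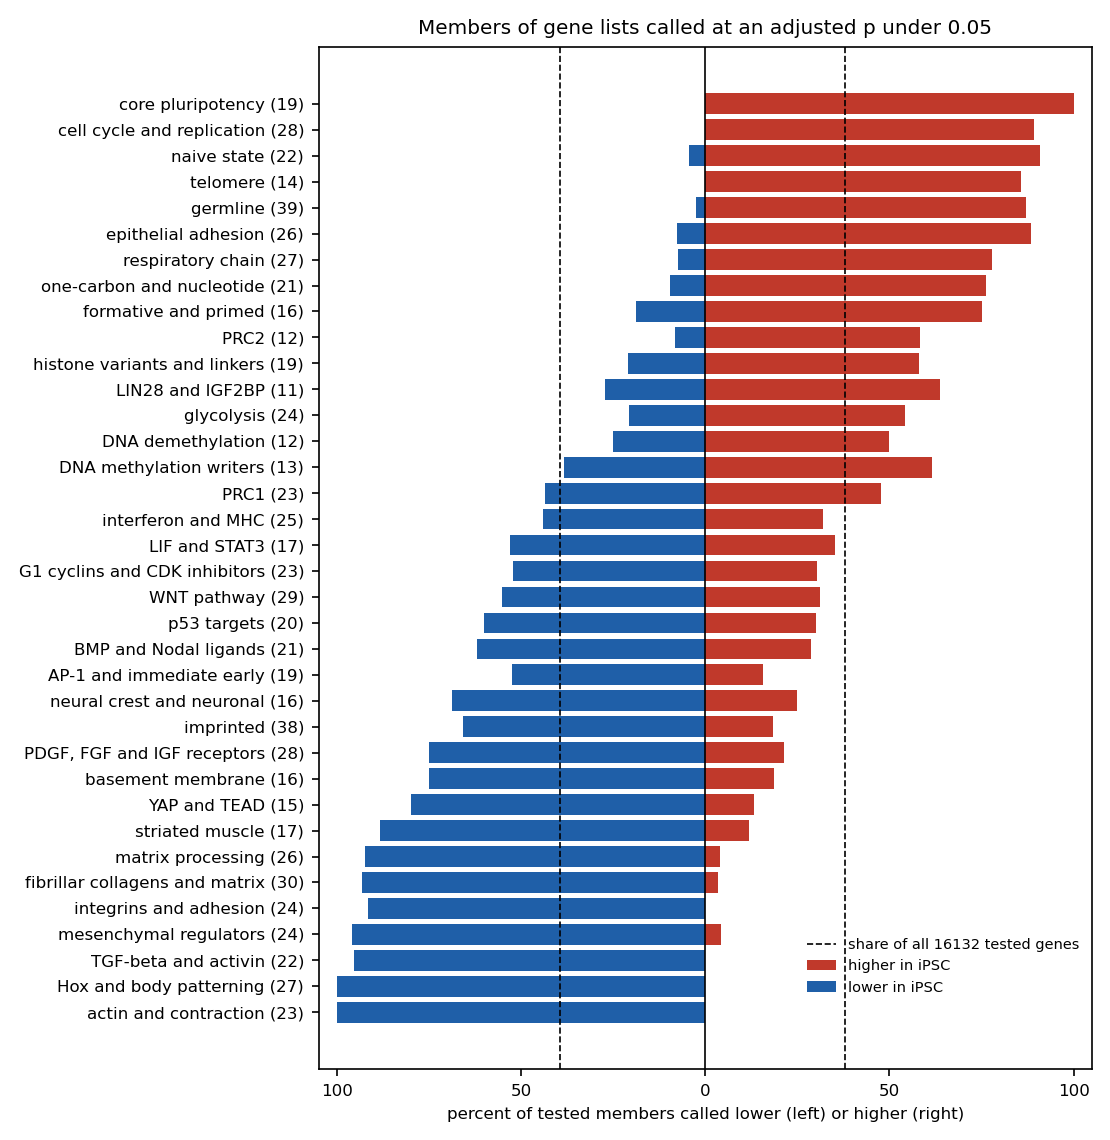
Percent of tested members called higher (right, red) or lower (left, blue) in iPSC for each gene list with at least 10 tested members, the number in brackets. Dashed lines give the shares over all 16132 tested genes (37.9% higher and 39.4% lower). Hox, actin and TGF-beta lists extend to the lower side and the core pluripotency, naive and germline lists to the higher side.

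Markers of other cell types were checked in both groups. Leukocyte markers summed to 127, 148 and 101 CPM in MEF, and 12 of 15 were lower in iPSC: the macrophage receptor gene Csf1r stood at 18.9, 22.9 and 13.7 CPM against 0.212, 0.456 and 0.31 CPM, and Ptprc at 3.11, 4.55 and 2.84 CPM against under 0.2 CPM. Laptm5 alone was higher, at 143, 143 and 138 CPM, and made up most of the iPSC sum of 170, 170 and 162 CPM. Of 8 endothelial markers 3 were higher (37.5%) and 4 lower (50%), against 37.9% and 39.4% over all tested genes. Among the higher was Pecam1, which mouse pluripotent cells also express. Of 12 trophoblast markers 5 were higher (41.7%) and 4 lower (33.3%), also near those shares. Tfap2c rose from 0.235, 0.168 and 0.0591 CPM to 120, 46.8 and 73.1 CPM (8.95 ± 0.42), and Gata3 fell (-3.37 ± 0.26). Cdx2 was under 0.4 CPM in each clone and Tpbpa at 0 in all 6 libraries. Of 7 endoderm markers 4 were higher (57.1%) and 3 lower (42.9%). Lama1 rose (2.79 ± 0.21), Dab2 fell (-3.92 ± 0.27), and Sox17 was at most 0.807 CPM. Haemoglobin genes had no count in either group. The part of such cells in the results was not tested.

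The shares of higher and lower genes differed between gene types, as a description without a test. By annotation, 13696 tested genes code for protein, of which 16.9% were higher and 22.9% lower past 2-fold. Among 1080 long noncoding genes 28% were higher and 19.4% lower, and among 825 pseudogenes 13% and 2.06%, where reads of near-identical copies make single values uncertain.

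The iPSC clones differed from each other more than the MEF libraries did. Over 8235 genes with at least 10 CPM in both groups, the median SD of log2 CPM was 0.135 in iPSC and 0.0546 in MEF, and 6951 genes (84.4%) had the larger SD in iPSC. An SD over 1 was found for 68 of 9209 genes in iPSC and for 2 of 9579 in MEF. Some of these genes set 1 clone apart. The clone of line 1 was low for Meg3 and Rian, as above. Mtm1 was low there too (9.55, 51 and 53.3 CPM), but line 1 was also the lowest in day 14 GFP+ cells (25.7, 63.5 and 67.8 CPM). The clone of line 2 was low for the X-linked deubiquitinase gene Usp9x (570, 144 and 805 CPM, higher than MEF by 0.95 on the log2 scale without this clone and not called with it), for Otx2 and for Slc16a3 (45.7, 11.5 and 51.2 CPM). The clone of line 3 was low for most Y-linked genes. Cyct was lowest there (28.4, 9.18 and 1.74 CPM) and, in day 14 GFP+ cells, in line 2 (31.9, 4.82 and 18.8 CPM). Frem2 (144, 85.6 and 6.89 CPM) and Ankrd31 (68.2, 1.71 and 82.2 CPM) also differed between lines in the sorted cells, with day 14 GFP+ levels of 120, 9.14 and 148 CPM and of 84.9, 85 and 0.942 CPM, and for both genes the low iPSC library carries the number of the other line.

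Of 7 genes examined on chromosome Y, Erdr1 (chrY:90784738-90816464) lies far from the others and stood at 89.9, 95.9 and 78.7 CPM in iPSC. The other 6, between positions 725128 and 1286629, were low in the iPSC library of line 3. Kdm5d, a histone demethylase gene, stood there at 2.55 CPM, where the other 20 libraries of the batch ranged from 30.7 to 67.1 CPM. Uty (3.97 CPM against 27.2 to 58.1), Ddx3y (11.4 against 78.3 to 158) and Eif2s3y (9.31 against 53.5 to 108) were low in the same library. The median deviation of Y-linked genes from the iPSC mean was 1.21, 1.12 and -2.34 on the log2 scale, whereas every autosome and the X stayed within 0.04. Fewer cells with a Y chromosome and less RNA from it cannot be told apart here. With this library included, Kdm5d (-0.80 ± 0.47, adjusted p = 0.133) and Uty (0.14, adjusted p = 0.803) were not called. Without it, Uty was higher in iPSC (0.68, adjusted p = 2.73e-05) and Kdm5d lower (-0.24, and -1.23 without the iPSC library of line 1).

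**Figure D5:**
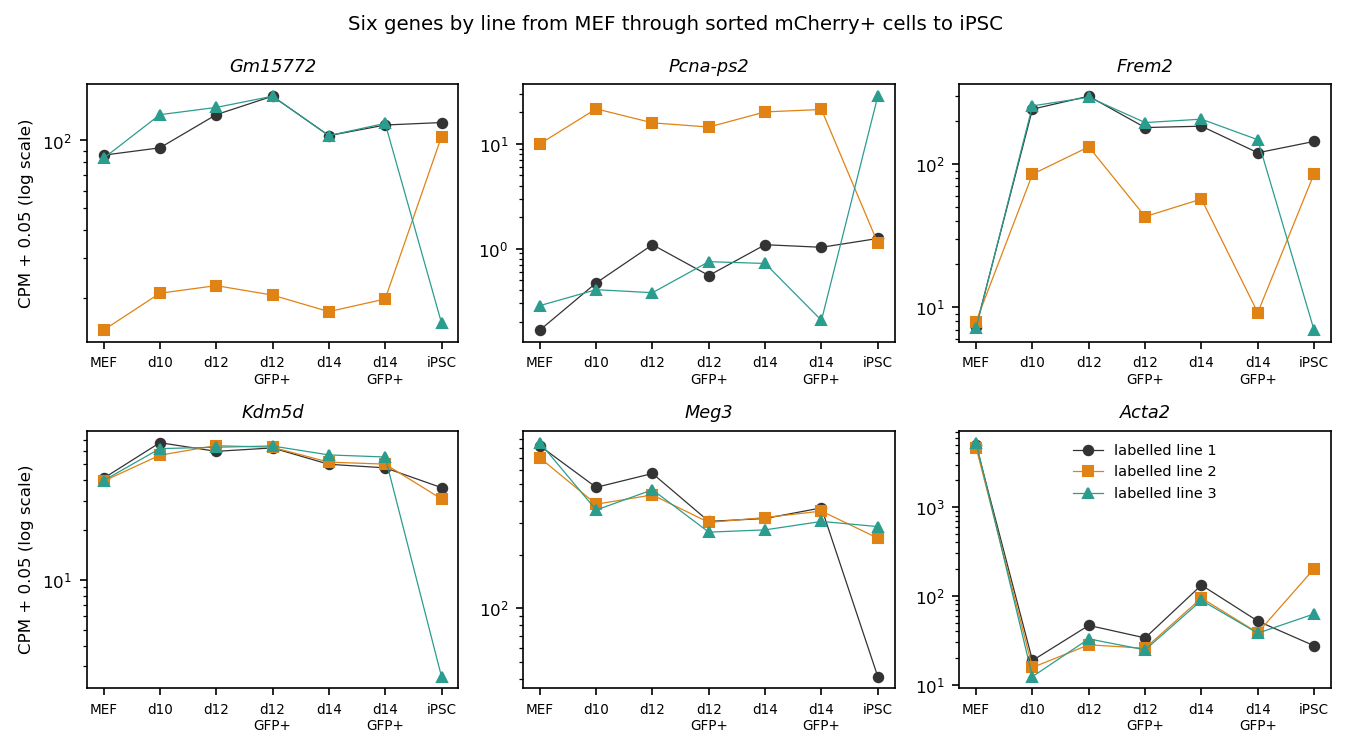
Level of 6 genes by labelled line in MEF, in 5 groups of sorted mCherry+ cells from day 10 to day 14 and in iPSC, in CPM plus 0.05 on a log scale. In Gm15772, Pcna-ps2 and Frem2 the iPSC of lines 2 and 3 trade places relative to the sorted cells. Kdm5d drops in the iPSC of line 3 (2.55 CPM), Meg3 in line 1 (41.2 CPM), and Acta2 is above the day 14 cells in the iPSC of line 2 (202 CPM).

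Levels in other pluripotent libraries are given as values without a test. Pou5f1 was at 724 ± 73.1 CPM in these iPSC, 871 ± 39.5 CPM in day 14 mCherry+ GFP+ cells and 761 ± 240 CPM in the wild-type iPSC clones of the second batch (SD, n = 3 each). Tet1 was at 1030 ± 205, 672 ± 55.3 and 1000 ± 263 CPM in the same order. Single wild-type clones held 493, 956 and 833 CPM of Pou5f1, a wider range than these iPSC, and 1300, 823 and 874 CPM of Tet1. Lin28a, at 372 ± 75.7 CPM in these iPSC and 320 ± 42.5 CPM in the wild-type clones, was at 97.9 ± 7.89 CPM in day 14 cells, and Mael at 15.6 ± 1.01, 22.8 ± 2.44 and 4.64 ± 1.09 CPM. Fibroblast genes went both ways against day 14 cells. Col1a1 was at 560 ± 278 CPM in these iPSC and 724 ± 190 CPM in day 14 cells, and Fbn2 at 7.25 ± 4 and 16.1 ± 2.94 CPM. Thbs1 was at 1080 ± 964 CPM in these iPSC, 99 ± 21.8 CPM in day 14 cells and 276 ± 41.7 CPM in wild-type clones, and Cdh2 at 7.45 ± 2.97, 2.34 ± 0.416 and 6.26 ± 1.54 CPM. Xist was at 37.1 ± 17.9, 2.23 ± 1.12 and 33.5 ± 7.99 CPM. Hoxa10, in contrast, was at 0.814 ± 0.442 CPM in these iPSC and 2.12 ± 0.136 CPM in day 14 cells. Batch and group cannot be told apart for the wild-type clones.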

How the data were processed

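RNA was poly(A)-selected and sequenced with a stranded kit, per the labels' protocols. The deposited table holds raw read counts per gene for 21 libraries of the first batch, made by the authors with HISAT2 2.1.0 and featureCounts 1.5.3 on GRCm38, per the submitters' processing notes. Per the file headers, reads were counted over whole genes on the reverse strand and reads shared by genes were left out, so genes nested in others on their strand read 0. 

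Counts were tested with edgeR 4.0.16 (R 4.3.3): TMM scaling, filterByExpr, a robust quasi-likelihood fit of all 21 libraries and the contrast of 3 iPSC against 3 MEF libraries, with Benjamini-Hochberg adjustment over 16132 genes and a threshold of 0.05. The test against a 2-fold change used glmTreat. CPM use scaled library sizes, and log2 CPM a prior count of 2. A group without counts was set to 3 counts per library, and such limits cover counting error only. The procedure was tested on simulated data. limma 3.58.1 compared lines among sorted cells. Positions are from GENCODE gene models on GRCm38, promoters and microRNAs from RefSeq (GRCm38.p6).

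Genes named by rule were the 12 largest called rises and the 12 largest falls (mean of the higher group 10 CPM or more), up to 4 called members of each of 46 lists, up to 2 members called against their list's direction, Tet, Dnmt3 and reprogramming genes, the 6 genes that varied most within each group, and genes with narrow intervals near no change. Other list members were chosen after their values were seen. Some genes that the rule names are not reported here. The members and lists were chosen with earlier results of these data known. Depth ranged from 13803350 to 20783265 counts a library over the 6 libraries.

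Line numbers come from the labels, which name 3 independent lines. Deviations of same-numbered MEF and iPSC libraries from their group means correlated at 0.139, 0.031 and 0.008 over 8235 genes. Alternatives were other scalings and count filters, the 6 libraries alone, DESeq2 1.42.0, a line block and leaving out each library.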

Additional observations from a re-analysis of the deposited data

How the results depend on the processing

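No count of called genes moved by over 1.5 times in any alternative fit. The number called ranged from 11918 with the 6 libraries alone to 13700 without a count filter, and the number past 2-fold from 5345 with DESeq2 to 7088 without a filter. Leaving out 1 library at a time gave 12145 to 12435 called genes, 5961 to 6268 higher and 6066 to 6300 lower, and 6171 to 6406 past 2-fold, 2786 to 2941 higher and 3322 to 3465 lower. With the labelled line as a replicate block 12540 genes were called and 6367 past 2-fold. With the numbers of iPSC libraries 2 and 3 crossed, a pairing chosen after seeing the data, the block called 12569 and 6363. With library totals alone the share of called genes that were higher was 59.1% in place of 49.0%, and 4 small falls turned sign: Nedd4 (0.12), Sdhb (0.07), Tubb5 (0.02) and Yap1 (0.03). Of 314 tested genes that were named by rule or in the text, 284 kept their call and direction in every setting run, and 78 of 92 list counts stayed within 1.5 times. Mirg (-1.4) and Rian (-1.77) were not called with the 6 libraries alone. The 2-cell-like list had 13 higher members without a count filter in place of 6, and the AP-1 list 6 in place of 3 with library totals. Genes near the floor of 3 counts a library have bounds only, and 3 clones limit what depth can add.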
